A study of Mus musculus with 14 samples.

Results

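The secretory pathway and unfolded protein response module was described here as 49 genes of the endoplasmic reticulum (ER) and of early vesicle transport, taken by symbol from the 41053 gene rows of the RNA-seq count tables. The rule itself used no measured value, but the members were chosen with earlier results of these data known. All 49 symbols were found in both tables. The members fall into 10 roles: 11 chaperones and co-chaperones, 4 protein disulfide isomerases, 3 subunits of the signal recognition particle, 5 of the translocon, 4 of the TRAP complex, 5 of the signal peptidase, 1 of the oligosaccharyltransferase, 8 genes of ER-associated degradation, 4 of vesicle transport and retrieval, and 4 stress sensors and transcription factors. Of these, 48 passed the filter on low counts in every comparison. Srp54a, a signal recognition particle subunit, did not pass: it had 1 read in each of 2 lymphoma libraries and 0 in the other 12, and near-identical Srp54 copies in mouse may split its reads.

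The study profiled mouse B cells from C57BL/6 spleen in 4 groups. Germinal center (GC) B cells, which are activated B cells that mutate and select their antibody genes, came from Tet2 knockout mice (KO, 4 libraries) and from wild-type mice (WT, 3 libraries). Lymphoma B cells carried a knockdown of Tet2 (shTet2, 2 libraries) or served as their control with the wild-type Tet2 genotype (control, 5 libraries). The Tet2 protein is a DNA dioxygenase that turns methylcytosine into hydroxymethylcytosine. The labels do not give the deleted part of Tet2, a Cre driver, the hairpin, the lymphoma model, the sort of the GC cells or the age of the mice, and they do not say whether libraries of a group came from separate mice. The p-values therefore measure the spread between these libraries, which may be technical.

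Proteins bound for secretion or for the cell surface enter the ER while they are made. The signal recognition particle brings the ribosome to the Sec61 translocon, the signal peptidase removes the signal peptide, the oligosaccharyltransferase adds sugars, and chaperones and disulfide isomerases fold the chain. Chains that fail are sent back to the cytosol for degradation, and folded ones leave in COPII vesicles. When unfolded chains build up, the sensors IRE1 (Ern1), ATF6 and PERK start the unfolded protein response, which raises ER chaperones and degradation genes through the factors XBP1 and ATF6 and acts through ATF4 and CHOP (Ddit3) on translation and survival. B cells use this response most when they become antibody-secreting plasma cells.

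The libraries differed between the cell sources in ways that touch every level given here. KO libraries held 29487244 to 30330950 counts and WT libraries 27191862 to 30434184, with 0.713 to 1.04% and 0.370 to 1.32% of them in ribosomal and structural RNA rows. The 2 shTet2 libraries held 14741588 and 9386084 counts, of which 54.0% and 45% were ribosomal, while control libraries held 6691167 to 18598386, of which 57.5 to 80.7% were. Tet2 itself did not differ between KO and WT (log2 fold change 0.04, SE 0.13, adjusted p = 0.909); with the deleted part not given, a count over the whole gene does not check the label. It was lower in both shTet2 libraries (54.9 and 50.7 CPM, counts scaled to a common library total) than in every control library (68.0, 64.1, 58.1, 57.5 and 57.8 CPM), but was not called (log2 fold change -0.21, SE 0.10, adjusted p = 0.295). The Y-linked gene Ddx3y was at 47.1, 60.6, 54.0 and 63.6 CPM in KO and 35.7, 25.5 and 32.0 CPM in WT libraries and at 0 in all lymphoma libraries, so Y-linked RNA differed both between KO and WT and between the cell sources. The B cell marker Ms4a1 was present in all 14 libraries.

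Promoter sequences of members that hold a DNA element through which the response is known to act are shown first, because the lymphoma results are set against them; 28 of the 39 members with a promoter window held neither of the 2 ER stress response elements searched, ERSE and ERSE-II. RefSeq promoter windows on GRCm38.p6, from 250 bases before to 50 after a gene's start, were matched for 39 members. ERSE was searched on both strands as CCAAT and CCACG with 9 bases of any kind between them, ERSE-II as ATTGG and CCACG with 1 base between them, the XBP1 element UPRE as TGACGTGG, and the ATF4 element CARE as TGATGCAA. ERSE was found in 37 of all 27025 genes with a window (0.137%), and 9 of these were members, 23.1% of the 39. ERSE-II stood in Dnajb11 and Herpud1, or 5.13% of members, against 0.0444% of genes. The CARE letters were found in Herpud1 only (2.56% of members, 1.03% of genes), and the UPRE letters in no member window (0.714% of genes). A match is a description of these letters and not a measured binding site.

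The 250 bases before the start of Hspa5, the gene of the chaperone BiP and the best-known target of the response, are given here (chr2:34771840-34772089, GRCm38.p6, plus strand) with the exact ERSE match in capitals.
Hspa5: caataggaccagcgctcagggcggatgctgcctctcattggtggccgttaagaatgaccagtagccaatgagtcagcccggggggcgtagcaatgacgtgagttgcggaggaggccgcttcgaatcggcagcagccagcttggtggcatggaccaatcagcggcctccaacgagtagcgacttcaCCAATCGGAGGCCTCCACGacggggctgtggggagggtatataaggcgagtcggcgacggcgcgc
The stretches around the exact matches in other members are printed 5′ to 3′ along the gene's strand, with each ERSE, ERSE-II or CARE match in capitals. Pdia6, Canx, Dnajc3 and Calr are members that were called in the lymphoma cells, Creld2 and Derl3 had large differences that were not called, Syvn1 had none, Hsp90b1 holds ERSE on both strands, and Herpud1 holds CARE followed by ERSE-II.
Pdia6 (chr12:17266476-17266524, plus strand): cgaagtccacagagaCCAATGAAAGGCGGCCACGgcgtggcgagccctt
Canx (chr11:50325785-50325833, minus strand): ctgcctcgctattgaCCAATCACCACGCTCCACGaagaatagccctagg
Dnajc3 (chr14:118937812-118937860, plus strand): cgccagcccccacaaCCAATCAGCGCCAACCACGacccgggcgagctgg
Calr (chr8:84847060-84847108, minus strand): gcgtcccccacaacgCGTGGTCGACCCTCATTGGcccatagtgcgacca
Creld2 (chr15:88819505-88819553, plus strand): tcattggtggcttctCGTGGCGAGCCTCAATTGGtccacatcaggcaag
Derl3 (chr10:75893227-75893275, plus strand): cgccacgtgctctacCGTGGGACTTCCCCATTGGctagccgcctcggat
Syvn1 (chr19:6046517-6046565, plus strand): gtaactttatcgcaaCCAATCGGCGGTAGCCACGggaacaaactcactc
Dnajb11 (chr16:22857843-22857871, plus strand): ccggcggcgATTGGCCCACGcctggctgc
Hsp90b1 (chr10:86705518-86705671, minus strand): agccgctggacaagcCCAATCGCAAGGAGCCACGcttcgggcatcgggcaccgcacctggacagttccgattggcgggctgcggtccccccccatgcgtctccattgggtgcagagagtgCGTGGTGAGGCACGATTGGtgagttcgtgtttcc
Herpud1 (chr8:94386302-94386402, plus strand): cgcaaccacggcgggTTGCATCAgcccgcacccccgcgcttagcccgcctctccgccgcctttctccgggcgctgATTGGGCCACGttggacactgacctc
The ERSE runs from CCAAT to CCACG in Hspa5, Pdia6, Canx, Dnajc3 and Syvn1 and as its reverse complement, from CGTGG to ATTGG, in Calr, Creld2 and Derl3. The match lay 65 to 47 bases before the start in Hspa5, 98 to 80 in Pdia6, 145 to 127 in Canx and 44 to 26 in Syvn1. That of Dnajb11 lay within the first bases after the start.

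Levels of members can be compared with each other only per length of exon, and the values in this paragraph are group means in CPM per kb of exon on a scale shared by all 14 libraries. In WT GC B cells Calr, an ER lectin chaperone, was highest (169 ± 15.9), followed by Atf4 (151 ± 20.3), Hspa5 (129.7 ± 6.2) and the disulfide isomerase Pdia3 (127 ± 8.87). The errors are SDs over 3 WT libraries. Calr and Atf4 differed by less than the larger of their SDs, and so did Hspa5 and Pdia3. In control lymphoma cells the order opened with Hspa5 (139 ± 9.12), Calr (116 ± 5.34) and Pdia4 (101 ± 9.19), an isomerase that ranked 15 in WT (37.0 ± 2.84). Ern1, the IRE1 sensor, and Sec61g, the gamma subunit of the translocon, were the lowest tested members in both. Ern1 averaged 1.39 in control and 0.581 in WT cells, and Sec61g 1.78 in control and 0.429 in WT cells. Sec61g had only 12 to 56 reads in any library. Reads that fit several places were not counted, and the part of this in its low level was not tested. In the other 2 groups, Hspa5 averaged 149.8 ± 13.8 in KO libraries and stood at 175 and 281 in the shTet2 libraries.

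**Figure D1:**
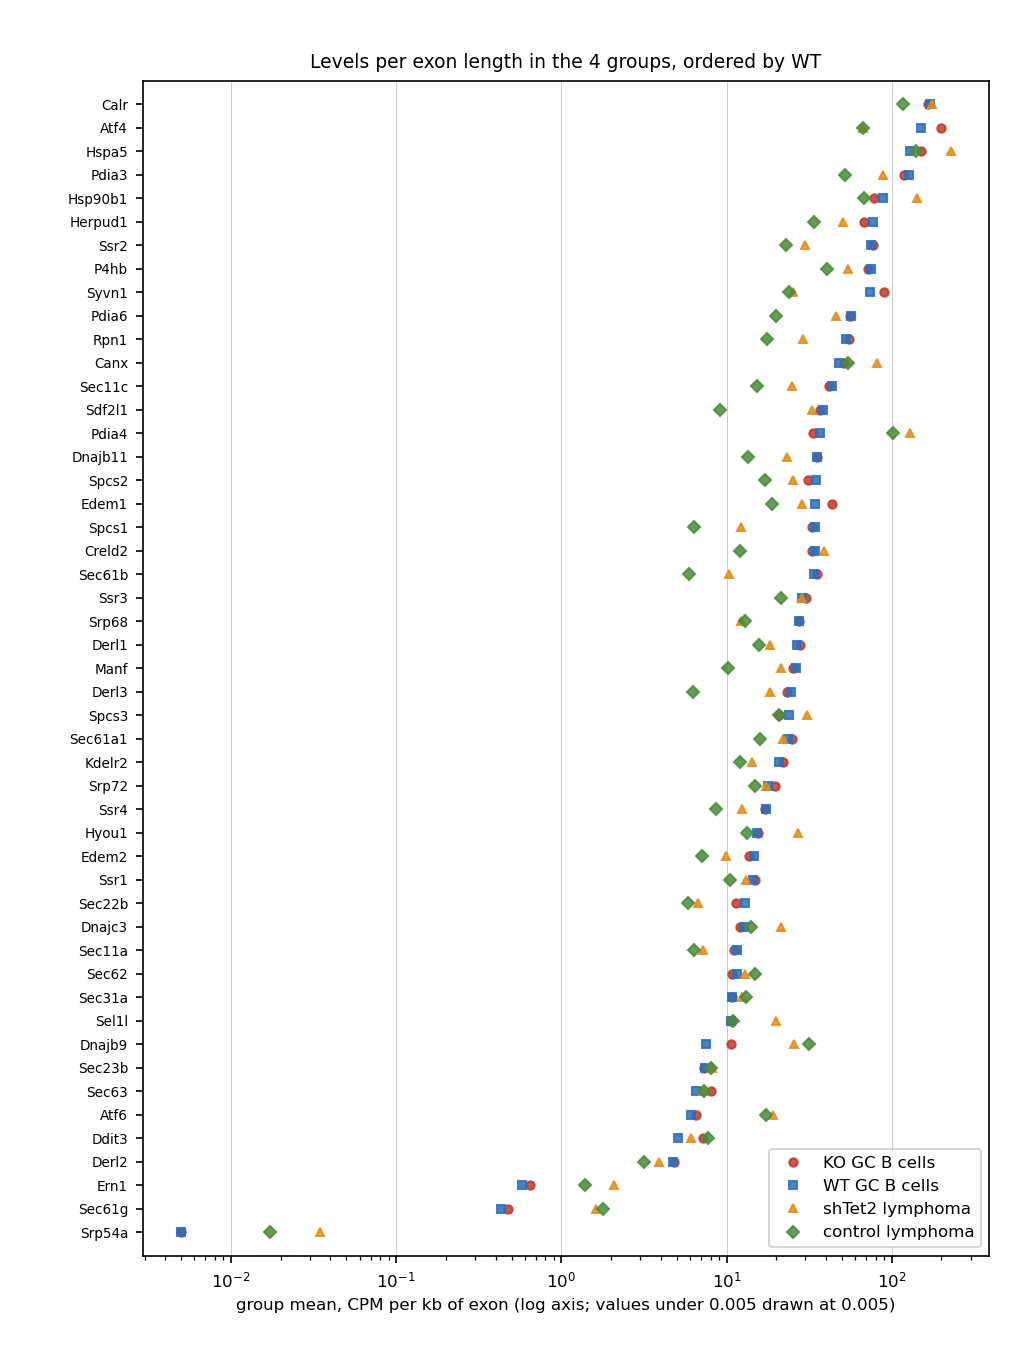
Group means of the 49 members in CPM per kb of exon on a log axis, ordered by the level in WT GC B cells, with KO, WT, shTet2 and control as separate marks. KO and WT marks lie close together for most members, while control lymphoma marks lie left of WT for Sdf2l1, Sec61b and Spcs1 and right of it for Pdia4, Dnajb9 and Atf6.

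The comparison of shTet2 with control lymphoma cells asks how the module stands when Tet2 is knocked down in malignant B cells. Of 48 members tested, 11 were called higher and 0 lower (edgeR's quasi-likelihood test, adjusted p under 0.05), where 2.58% of all 12797 genes were called, 1.84% higher and 0.742% lower. Over all genes, 71.2% of the calls were higher, beside 59.4% with DESeq2. The members called were Sdf2l1, Pdia6, Hyou1, Dnajb11, Rpn1, Hspa5, Edem1, Dnajc3, Calr, Herpud1 and Canx. Over all 48 members the log2 fold change was positive for 40 and negative for 8, with a median of 0.47 beside -0.00 for all genes, and 30 members had an unadjusted p under 0.05. Both shTet2 libraries lay above all 5 controls for 24 members and below them for 2, beside 11.5% and 9.75% of all genes. The median is a description of the list, with no test.

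The 2 shTet2 libraries did not carry the difference equally. Relative to the control mean, the members' median shift was 0.71 on the log2 scale in shTet2 library 2 and 0.16 in shTet2 library 1, with 41 and 37 of 48 members above the control mean. Members took 1.37% of the counts outside ribosomal rows in shTet2 library 2 and 0.887% in shTet2 library 1, against 0.709 to 0.779% in control libraries. Without shTet2 library 1, 31 members were called higher where 10% of all genes were; without shTet2 library 2, 3 were (Hyou1, Pdia6 and Sdf2l1), where 0.771% of all genes were. In these fits the lone shTet2 library is assumed to vary like the controls. Leaving out control 1, 2, 3, 4 or 5 left 3, 2, 1, 4 and 5 members called higher. Of all genes, 0.768, 0.939, 0.665, 1.19 and 1.48% were called higher in these fits, so calls fell over all genes too. Hyou1 was called in each of them. In bulk RNA, fewer or more cells of a kind and less or more RNA per cell cannot be told apart.

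**Figure D2:**
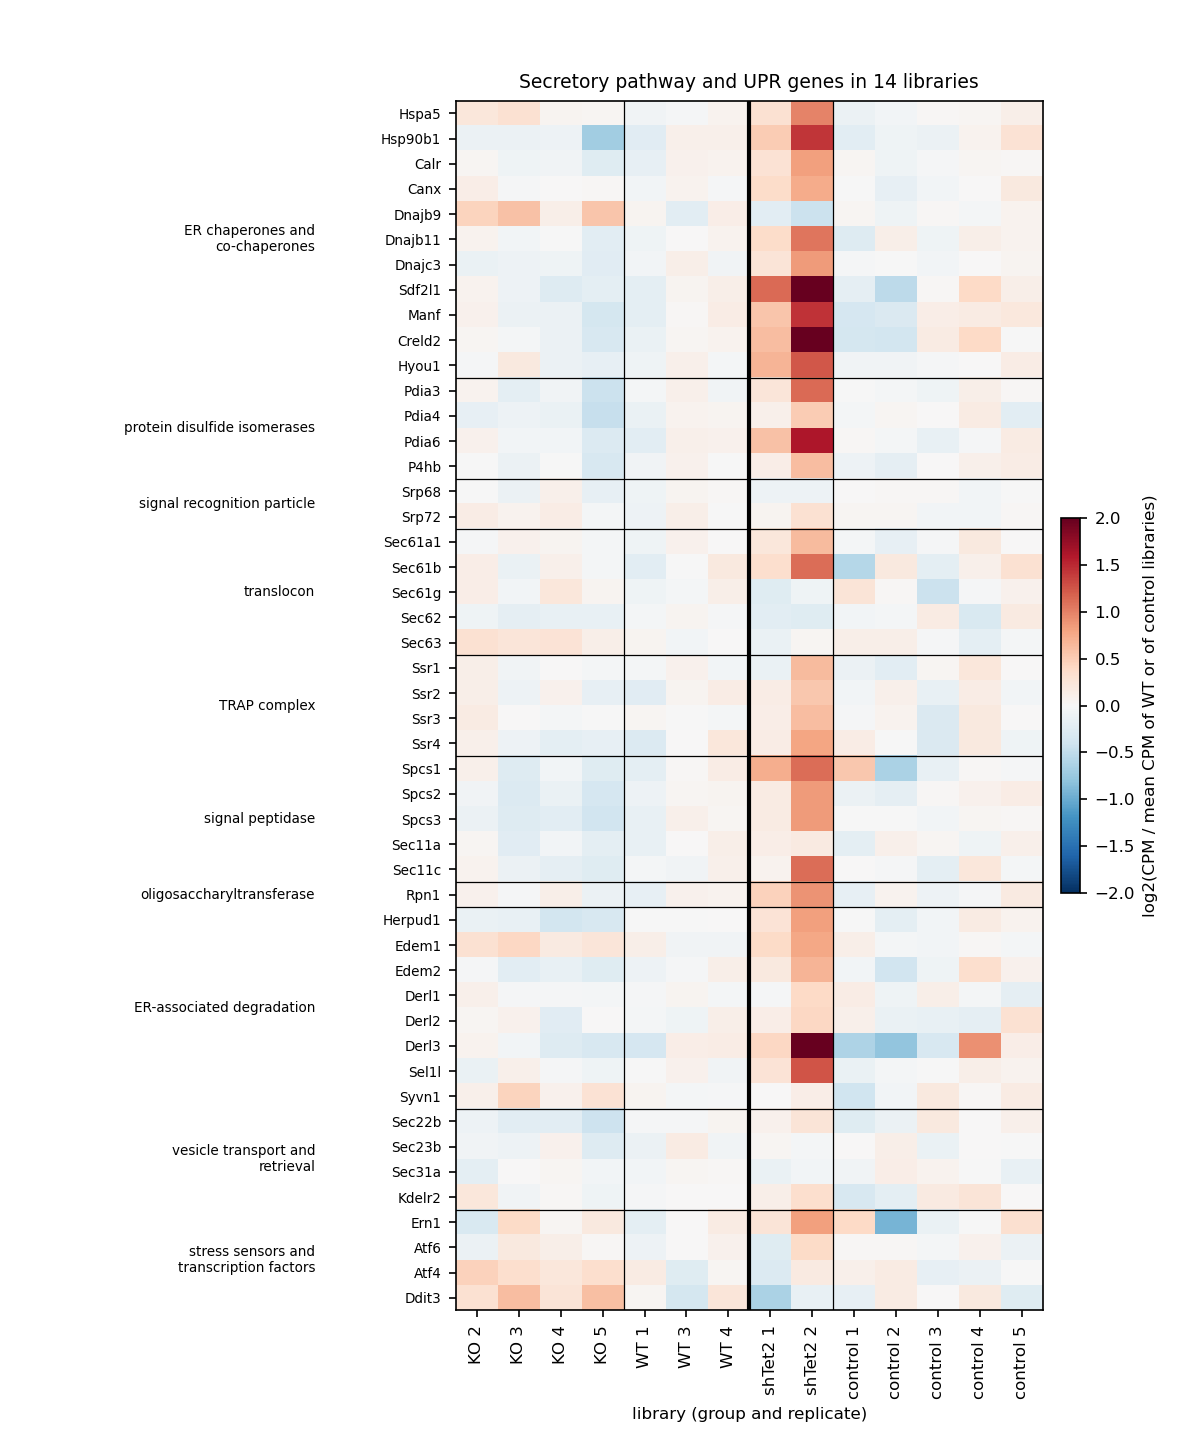
Heat map of 48 members (rows, by role) in 14 libraries (columns), coloured by the log2 ratio of a library's CPM to the mean CPM of the WT libraries (GC cells, left of the thick line) or of the control libraries (lymphoma, right of it); colours stop at 2 on either side. The shTet2 library 2 column is red through most chaperones, isomerases and signal peptidase rows (median 0.71), shTet2 library 1 is paler (median 0.16), and KO columns are mostly pale, with single deeper cells such as Hsp90b1 in KO 5 (350.1 CPM).

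Among the stress sensors and transcription factors, 0 of 4 passed the test in shTet2 against control cells, and none had both shTet2 libraries outside the range of the controls on 1 side. Ern1 was at 8.81 and 13 CPM in shTet2 libraries, against 9.70, 3.85, 6.75, 7.33 and 9.18 CPM in control libraries (log2 fold change 0.53, SE 0.26, adjusted p = 0.303). Atf6 was at 88.1 and 136 CPM in shTet2 libraries, against 106, 105, 101, 111 and 96.1 CPM in controls (log2 fold change 0.10, SE 0.14, adjusted p = 0.723). Library 1 lay below all controls and library 2 above them, and the sign turned to -0.24 when library 2 was left out. Atf4, the factor of the PERK branch, was at 62.4 and 85.5 CPM in shTet2 libraries and 81.0, 83.8, 66.9, 69.2 and 74.7 CPM in controls (log2 fold change -0.02, SE 0.13, adjusted p = 0.957), again with 1 shTet2 library on either side of the controls. Its sign depended on the library left out, with a range of -0.26 to 0.19. Ddit3, which encodes the death-linked factor CHOP, was at 5.58 and 7.77 CPM in shTet2 libraries and 7.68, 9.63, 8.62, 9.86 and 7.29 CPM in controls (log2 fold change -0.37, SE 0.19, adjusted p = 0.323).

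Chaperones held most of the calls in the lymphoma cells, 7 of 11. Sdf2l1, an ER protein that works with BiP and its co-chaperones, was at 14.4 and 32.3 CPM in shTet2 libraries, against 5.79, 4.58, 6.69, 8.59 and 7.12 CPM in control libraries (log2 fold change 1.79, SE 0.29, adjusted p = 0.0200), the largest difference of any called member. Hyou1, which exchanges the nucleotide of BiP, was at 100.5 and 149 CPM in shTet2 libraries, against 59.5, 59.5, 61.9, 62.9 and 69.3 CPM in controls (log2 fold change 0.99, SE 0.13, adjusted p = 0.00418). Both genes had each shTet2 library above every control, and the 5 controls of Hyou1 lay close together. Hspa5 was at 393 and 630.5 CPM in shTet2 libraries, against 293, 305, 321, 324 and 343 CPM in controls (log2 fold change 0.69, SE 0.15, adjusted p = 0.0342). Dnajb11, a J-domain partner of BiP, was at 36.7 and 59.2 CPM in shTet2 libraries, against 23.7, 30.8, 26.7, 30.7 and 29.7 CPM in controls (log2 fold change 0.76, SE 0.17, adjusted p = 0.0402). For these genes too the groups did not overlap, and shTet2 library 2 was the higher of its pair.

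The co-chaperone Dnajc3 and the lectin chaperones Calr and Canx rose by 0.58, 0.58 and 0.56 on the log2 scale. Of the 7 fits that each left out 1 library, Hyou1 was called in all, Sdf2l1 in 4 (not without control 1, 2 or 3) and Canx in 2 (without shTet2 library 1 or control 5). Hspa5, Dnajb11, Dnajc3 and Calr were called in 1, that without shTet2 library 1. Another 3 chaperones had larger fold changes than most called genes without passing the test. Creld2, a secreted ER stress protein, was at 16.2 and 51.3 CPM in shTet2 libraries, against 8.31, 8.19, 11.9, 13.9 and 10.6 CPM in controls (log2 fold change 1.64, SE 0.43, adjusted p = 0.119). Hsp90b1, the ER form of the HSP90 chaperone, had a log2 fold change of 1.04 (adjusted p = 0.0659) and Manf, an ER-resident neurotrophic factor, 1.04 (adjusted p = 0.0700). Dnajb9, a J protein known to hold BiP on IRE1, went the other way: it was at 32.8 and 28.1 CPM in shTet2 libraries, against 38.9, 35.9, 38.4, 36.8 and 39.6 CPM in controls (log2 fold change -0.32, SE 0.10, adjusted p = 0.117), with both shTet2 libraries below every control.

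**Figure D3:**
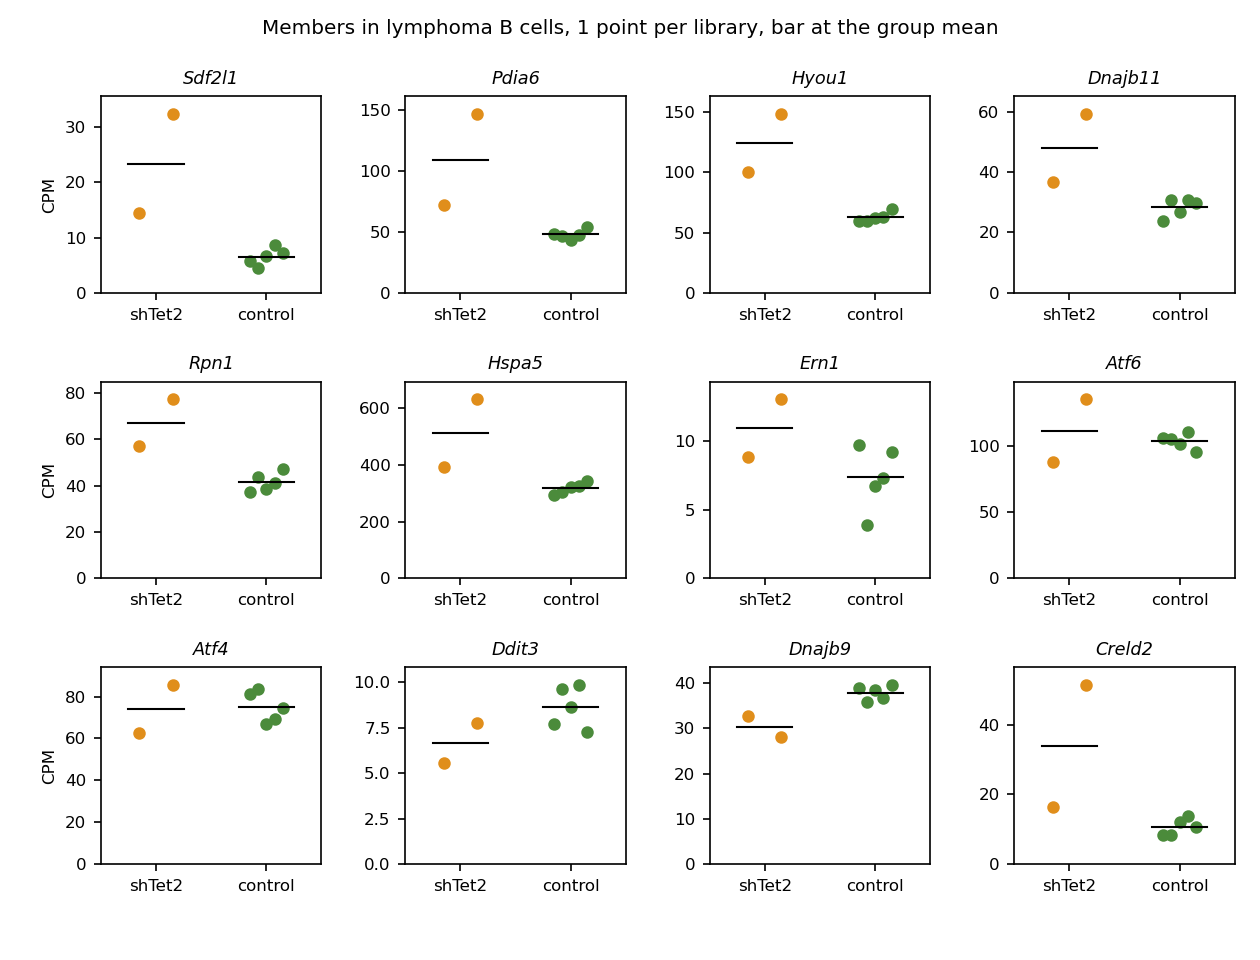
CPM of 12 members in lymphoma B cells, 1 point per library (shTet2 left, 2 libraries; control right, 5 libraries) with a bar at the group mean and axes from 0. Points of shTet2 libraries lie above all control points for Sdf2l1, Pdia6, Hyou1, Dnajb11, Rpn1, Hspa5 and Creld2, below them for Dnajb9, and on both sides of or among them for Ern1, Atf6, Atf4 and Ddit3.

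Of the 4 disulfide isomerases, 1 was called higher in shTet2 cells and all 4 had positive differences. Pdia6, which forms and reshuffles disulfide bonds and binds BiP, was at 72.0 and 147 CPM in shTet2 libraries, against 48.6, 46.7, 43.5, 47.3 and 54.1 CPM in control libraries (log2 fold change 1.19, SE 0.23, adjusted p = 0.0400). The shTet2 libraries lay above all controls, and the call was kept without either shTet2 library but not without any 1 of the controls. Pdia3, the partner of calnexin and calreticulin, had a log2 fold change of 0.75 (adjusted p = 0.0772), P4hb 0.39 and Pdia4 0.32, and the last 2 overlapped the controls.

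Of the genes of entry into the ER and of early processing, Rpn1 was the only member called. Rpn1, a subunit of the oligosaccharyltransferase that holds the ribosome, was at 57.1 and 77.1 CPM in shTet2 libraries, against 37.2, 43.8, 38.6, 40.9 and 47.3 CPM in control libraries (log2 fold change 0.69, SE 0.13, adjusted p = 0.0175); it was no longer called without shTet2 library 2, control 1 or control 3. Neither of the 2 tested signal recognition particle subunits was called: Srp72 had a log2 fold change of 0.19, and Srp68 -0.10, with both shTet2 libraries at 21.3 CPM, just under the controls. Of the translocon, Sec61a1 and Sec61b had 0.44 and 0.78 with both shTet2 libraries above all controls, while Sec61g, Sec62 and Sec63 had -0.14, -0.22 and -0.04; 0 of 5 were called. The 4 TRAP subunits, which help chains into the translocon, ranged from 0.30 (Ssr1) to 0.50 (Ssr4) with 0 called. All 5 signal peptidase subunits had positive differences, from 0.16 (Sec11a) to 0.91 (Spcs1), and 4 of them lay above all controls in both shTet2 libraries, again with 0 called. Spcs1 came closest (log2 fold change 0.91, SE 0.22, adjusted p = 0.0534) and was called without control 1. Of its exon bases, 17.9% overlap Glt8d1 on the opposite strand. The counts were made without a strand or multi-overlap option, so reads over exons of both genes were left uncounted.

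In ER-associated degradation, 2 of 8 members rose in shTet2 cells. Edem1, a mannosidase-like protein that hands glycoproteins to degradation, was at 92.8 and 121 CPM in shTet2 libraries, against 77.1, 69.4, 68.4, 72.6 and 69.1 CPM in control libraries (log2 fold change 0.59, SE 0.11, adjusted p = 0.0179). Herpud1, a scaffold of the ubiquitin ligase complex, was at 61.8 and 90.1 CPM in shTet2 libraries, against 50.6, 44.5, 49.1, 56.9 and 53.4 CPM in controls (log2 fold change 0.57, SE 0.14, adjusted p = 0.0497), just past the threshold. Both genes had non-overlapping groups. Edem1 was not called without shTet2 library 2, control 2 or control 3, and Herpud1 was called only without shTet2 library 1 among the fits that left out a library. The core ligase Syvn1 (HRD1) had a log2 fold change of 0.06 and its partner Sel1l 0.85 (adjusted p = 0.0852). Derl3, a channel component, was at 7.20 and 24.3 CPM in shTet2 libraries, against 3.53, 3.13, 4.34, 10.2 and 5.92 CPM in controls, and shTet2 library 1 lay within their range (log2 fold change 1.47, SE 0.58, adjusted p = 0.247). None of the 4 genes of vesicle transport and retrieval was called: the COPII coat genes Sec23b and Sec31a had log2 fold changes of 0.00 and -0.09, the SNARE Sec22b 0.16 and the retrieval receptor Kdelr2 0.21.

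Set against the promoter letters printed above, 7 of the 11 members with ERSE or ERSE-II were called higher in shTet2 cells, with a median log2 fold change of 0.69, and 9 lay above all controls. Of 27 tested members whose window held neither, 3 were called (Sdf2l1, Rpn1 and Edem1), with a median of 0.32, and 10 lay above all controls. Of 10 members with no window in the table, 1 was called (Hyou1). Syvn1, whose ERSE is printed above, had a log2 fold change of 0.06 in shTet2 against control cells. In KO against WT cells the 11 members with an element had a median of -0.09, and in control lymphoma against WT cells of -1.19. Over all genes, 1.84% were called higher in shTet2 cells and 11.5% lay above all controls. Most members with an element are chaperones, the role with 7 of the 11 calls, so element and role cannot be told apart here. The members' median shift was 0.71 in shTet2 library 2 and 0.16 in shTet2 library 1, and the counts by element were not split by library. These are counts over a chosen list and no test of the element.

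In GC B cells the same module showed no member that passed the test. Of 48 members, 0 were called in KO against WT cells (edgeR's quasi-likelihood test), where 6.49% of all 13600 genes were called, 1.92% higher and 4.57% lower; 11 members had an unadjusted p under 0.05, DESeq2 called 5 higher (Dnajb9, Edem1, Sec63, Atf4 and Ddit3) and limma-voom 0. Over all 13600 genes DESeq2 called 443 higher and limma-voom 224, beside 261 with edgeR. The median log2 fold change of the members was -0.04, beside 0.01 for all genes. The members ranged from -0.24 (Hsp90b1) to 0.46 (Ddit3). All KO libraries lay above all WT libraries for 5 members (Syvn1, Sec63, Edem1, Atf4 and Ddit3), beside 7.65% of all genes, and below them for 4 (Herpud1, Sec22b, Sec62 and Dnajc3), beside 10.6%.

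The members with the smallest p-values in the GC comparison were Dnajb9, Atf4 and Edem1. Dnajb9 was at 30.6, 33.5, 24.3 and 32.9 CPM in KO libraries, against 23.2, 19.3 and 24.6 CPM in WT libraries (log2 fold change 0.44, SE 0.13, adjusted p = 0.0522), and KO 4 overlapped the WT range. Atf4 was at 566, 521, 482 and 520.5 CPM in KO libraries, against 464, 351 and 425 CPM in WT libraries (log2 fold change 0.34, SE 0.10, adjusted p = 0.0566). Edem1 was at 397, 428, 364 and 377 CPM in KO libraries, against 349, 306 and 306 CPM in WT libraries (log2 fold change 0.29, SE 0.09, adjusted p = 0.0622). For Atf4 and Edem1 the groups did not overlap. Ddit3 was at 16.9, 21.2, 16.5 and 20.9 CPM in KO libraries, against 14.2, 10.8 and 16.4 CPM in WT libraries, with KO 4 just above the highest WT library (log2 fold change 0.46, SE 0.15, adjusted p = 0.0887). DESeq2 called all 4 of these genes, with adjusted p-values of 0.0182 for Dnajb9, 0.0163 for Atf4, 0.0209 for Edem1 and 0.0444 for Ddit3.

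The other sensors and BiP overlapped between KO and WT cells. Hspa5 was at 840.2, 890.0, 748 and 739.7 CPM in KO libraries, against 691, 712 and 762 CPM in WT libraries (log2 fold change 0.16, SE 0.09, adjusted p = 0.365), with the lower 2 KO libraries inside the WT range. Ern1 was at 6.07, 9.85, 7.70 and 8.60 CPM in KO libraries, against 6.54, 7.6 and 8.42 CPM in WT libraries (log2 fold change 0.10, SE 0.18, adjusted p = 0.819), and its sign turned to -0.02 without KO 3. Atf6 was at 81.6, 102, 96.6 and 90.4 CPM in KO libraries, against 82.9, 89.2 and 93.7 CPM in WT libraries (log2 fold change 0.06, SE 0.09, adjusted p = 0.767). All 4 disulfide isomerases and all 5 signal peptidase subunits had negative differences, with 0 called and medians of -0.13 and -0.11. Over all 48 members the median shift from the WT mean was 0.07, -0.06, -0.02 and -0.16 in KO 2, 3, 4 and 5. Each WT library was set against the mean of the other WT libraries, with shifts of -0.12, 0.06 and 0.09 in WT 1, 3 and 4. The sizes of KO and WT shifts are therefore not directly comparable. KO 5 had 36 members below its reference mean and WT 1 had 41, so 1 library of either group was low.

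The difference between both Tet2 effects was tested directly, as the shTet2 effect minus the KO effect in 1 model of all 14 libraries. It was positive and called for 15 of 48 members and negative and called for 1, where 4.99% of all 15441 genes were called, 3.39% positive and 1.61% negative, and the members' median difference was 0.48 on the log2 scale. The largest were Sdf2l1 at 1.85 (SE 0.32, adjusted p = 0.00399), Hsp90b1 at 1.25 (SE 0.30, adjusted p = 0.0285) and Pdia6 at 1.23 (SE 0.26, adjusted p = 0.0114). Manf, Hyou1 and Spcs1 followed with 1.11, 0.97 and 0.97. Hsp90b1, Manf and Spcs1 had not been called in the lymphoma cells alone. Dnajb9 differed the other way, by -0.79 (SE 0.17, adjusted p = 0.00875).

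Hspa5, the sensors and the ATF4 branch did not pass this test of the difference. Hspa5 differed by 0.50 (SE 0.18, adjusted p = 0.117), Ddit3 by -0.86 (SE 0.25, adjusted p = 0.0535) and Atf4 by -0.39 (SE 0.17, adjusted p = 0.219). The values for Ern1 and Atf6 were 0.39 and 0.01. The count of 15 changed with the library left out in both cell sources. It was 9 without KO 5, 5 without WT 3, 8 without WT 4 and 8 without control 3. More members were called without shTet2 library 1 and fewer without shTet2 library 2. The share of all genes called in these fits is not given. A change over all genes therefore cannot be told from one of the members. The members' median difference ranged from 0.17 to 0.67 over the fits that left out 1 library. Hsp90b1, whose difference was among the largest, was low in KO 5 alone, and 15.7% of its exon bases overlap other genes.

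**Figure D4:**
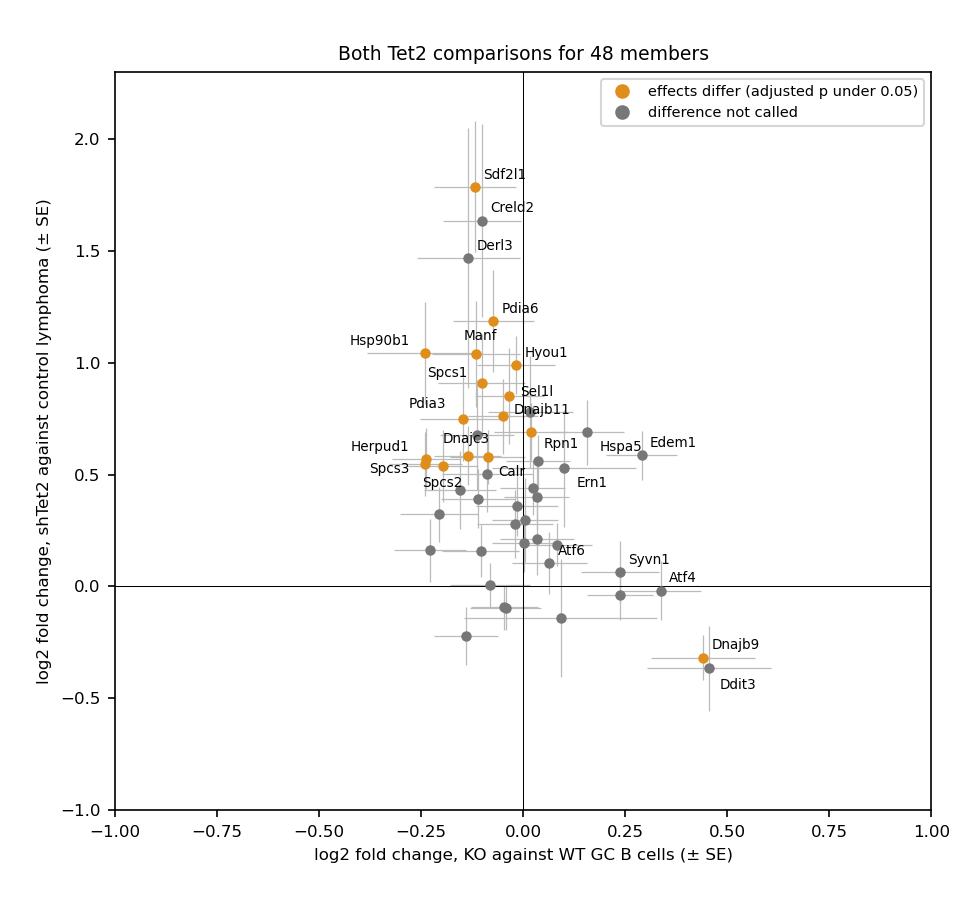
Log2 fold change of KO against WT GC B cells (horizontal) and of shTet2 against control lymphoma cells (vertical) for 48 members, with SE bars; orange marks members whose effects differed in the joint model. Most points lie above 0 on the vertical axis and near 0 on the horizontal one, while Dnajb9 and Ddit3 lie to the lower right.

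Control lymphoma cells and WT GC B cells differed at most genes, so the module is read here against that background. Of 48 members, 39 were called, a share close to the 80.7% of all 15441 genes, with 8 higher and 31 lower, where 40.2% and 40.4% of all genes were. The members' median log2 fold change was -0.76, beside -0.03 for all genes, a gap of -0.73. Upper-quartile scaling moved the median of all genes by 0.41 and the share of calls that were higher to 60.9%, beside 49.9%. A scaling factor shifts all genes nearly alike, so the same gap of -0.73 under RLE and upper-quartile scaling is no check of it. With other sets of genes tested the gap did move. It was -0.59 with the 1 CPM filter, -0.87 with no filter and -0.92 without ribosomal and structural RNA rows. The cell kind, the experiment and the ribosomal share of the libraries cannot be told apart in this comparison. The values that follow are log2 fold changes with TMM scaling, set against the all-gene median near 0.

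The 2 lowest members relative to WT belong to entry and processing. Sec61b, the beta subunit of the translocon, was at 3.99, 6.61, 5.15, 6.37 and 7.35 CPM per kb of exon in control libraries, against 29.0, 33.7 and 38.6 in WT libraries (log2 fold change -2.52, SE 0.17). Spcs1, the small subunit of the signal peptidase, was at 9.21, 4.02, 5.77, 6.5 and 6.31 in control libraries, against 29.9, 35.1 and 37.9 in WT libraries (log2 fold change -2.41, SE 0.15). The ranges of both genes lay far apart. Sdf2l1, highest among the shTet2 differences, was at 8.10, 6.27, 9.36, 12 and 10.003 in control libraries, against 33.6, 40.0 and 41.6 in WT libraries (log2 fold change -2.02, SE 0.22). Derl3, the TRAP subunit Ssr2 and Syvn1 had log2 fold changes of -1.89, -1.71 and -1.63. By role, 7 of 8 degradation genes, 4 of 5 signal peptidase subunits, 4 of 4 TRAP subunits and 3 of 4 isomerases were lower, as were both tested signal recognition particle subunits and Rpn1. Of the chaperones 5 of 11 were lower and 1 higher, of the translocon 2 of 5 lower and 2 higher, of vesicle transport and retrieval 2 of 4 lower and 1 higher, and of the sensors and factors 1 of 4 lower and 3 higher.

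Dnajb9 and the sensors Atf6 and Ern1 stood on the other side. Dnajb9 was at 32.3, 29.2, 32.0, 30.6 and 33.1 CPM per kb of exon in control libraries, against 7.82, 6.57 and 8.29 in WT libraries (log2 fold change 2.06, SE 0.12). Atf6 was at 17.8, 17.3, 17.1, 18.6 and 16.2 in control libraries, against 5.66, 6.14 and 6.38 in WT libraries (log2 fold change 1.52, SE 0.12). Ern1, at a low level, was at 1.84, 0.715, 1.28, 1.39 and 1.75 in control libraries, against 0.504, 0.591 and 0.647 in WT libraries (log2 fold change 1.30, SE 0.22). In all 3 genes every control library lay above every WT library, as for 36% of all genes. Sec61g, Pdia4 and Ddit3 were also higher, by 2.03, 1.45 and 0.61, whereas Atf4 was lower (-1.18). The value for Sec61g rests on few reads, 12 to 36 in control libraries and 49 in each WT library. Hspa5 was at 129, 132, 142, 143 and 152 in control libraries, against 124, 129 and 136 in WT libraries, and was not called (log2 fold change 0.11, SE 0.12, adjusted p = 0.409).

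Exon length moved with this comparison. The all-gene median log2 fold change was 0.11 for genes of up to 1500 bases of exon, -0.59 for longer ones up to 3000, -0.24 up to 4500, 0.06 up to 6000 and 0.67 above that. The medians of the members in the same classes were -1.89 (5 members), -0.82 (12), -1.02 (15), -0.56 (6) and 0.08 (10), below the all-gene median in each. Across the 48 members the Spearman correlation of exon length with log2 fold change was 0.47 in this comparison and -0.16 in shTet2 against control cells. The part of length in the result was not tested.

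**Figure D5:**
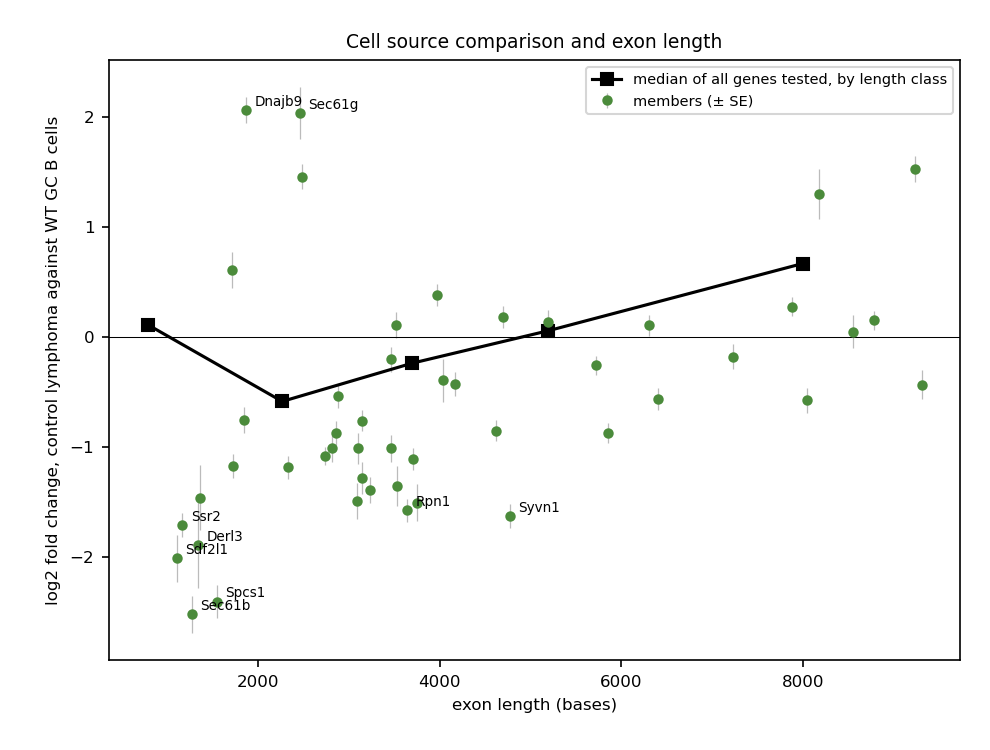
Log2 fold change of control lymphoma against WT GC B cells (vertical, SE bars) by exon length in bases (horizontal) for 48 members, with black squares at the all-gene medians of the 5 length classes. Sec61b, Spcs1 and Sdf2l1 are short and low, Ern1 and Atf6 are long and high, and Dnajb9, Sec61g and Pdia4 lie above the all-gene line.

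Other genes of the pathway, listed beside the members, gave 8 higher and 1 lower call among 127 tested genes of 6 lists in shTet2 against control cells, or 6.3% and 0.787%, beside 1.84% and 0.742% of all genes. Among 14 other sensors, factors and regulators, 1 was higher in shTet2 cells: Xbp1, whose RNA is spliced by IRE1 into the factor that drives ER expansion, was at 67.0 and 74.3 CPM in shTet2 libraries, against 34.0, 38, 36.2, 45.8 and 46.2 CPM in control libraries (log2 fold change 0.81, SE 0.13, adjusted p = 0.00800). Both libraries were above all controls and of like height. The counts do not separate its spliced and unspliced forms. Of 22 tested ATF4 and CHOP targets, 4 were higher and 1 lower. The asparagine synthetase gene Asns rose by 2.08 on the log2 scale (adjusted p = 0.0248) and the serine synthesis gene Psat1 by 1.05 (adjusted p = 0.0119), while the stress factor Atf3 fell to 0.834 and 0.737 CPM in shTet2 libraries, against 4.41, 8.43, 6.16, 5.05 and 2.49 CPM in controls. Of 21 other folding genes 0 were called, of 21 other targeting genes 1 (Magt1, log2 fold change 0.66, adjusted p = 0.0273), of 19 other degradation genes 1 (Man1b1, 0.75, adjusted p = 0.0245) and of 30 other coat and retrieval genes 1 (Sec24d, 1.27, adjusted p = 0.0101).

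In KO against WT cells the same lists held 3 calls among 131 tested genes, or 2.29%, below the 6.49% of all genes, and the 3 are given as values. Ppp1r15a (GADD34), which restores translation after PERK, was at 237, 261, 160.4 and 246 CPM in KO libraries, against 125, 88.5 and 133 CPM in WT libraries (log2 fold change 0.97, SE 0.20, adjusted p = 0.0251). Gdf15, a stress-induced cytokine and ATF4 target, was at 0.667, 1.12, 0.941 and 0.803 CPM in KO libraries, against 0.322, 0.133 and 0.260 CPM in WT libraries (log2 fold change 1.87, SE 0.43, adjusted p = 0.0162), at low levels throughout. Txndc5, a disulfide isomerase abundant in plasma cells, fell to 537, 547, 563 and 463 CPM in KO libraries, against 680.2, 914 and 734 CPM in WT libraries (log2 fold change -0.56, SE 0.11, adjusted p = 0.00409). KO and WT libraries did not overlap for any of the 3.

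Markers of other cell states moved beside these results. The plasma cell list, which shares Xbp1 with the pathway, summed to 656 and 564 CPM in shTet2 libraries, against 368 to 462 CPM in controls, and 2 of its 11 tested genes were higher, Xbp1 and the plasma cell regulator Prdm1 (log2 fold change 1.21, adjusted p = 0.0327). Igj, the joining chain of secreted antibody, was at 279 and 90.1 CPM in shTet2 libraries, against 46.6, 42.1, 63.5, 60.5 and 97.7 CPM in controls. Tnfrsf17, a receptor of plasma cells, had only 4 and 3 reads in shTet2 libraries (0.209 and 0.201 CPM) and was at or near 0 in controls. Library 1 was thus the higher shTet2 library in this sum and the lower one over the members. The order of the sum was that of Igj, and the other genes of the list were mixed. Xbp1 (67.0 and 74.3 CPM in libraries 1 and 2) and Mzb1 (52.7 and 107 CPM) were higher in library 2. Fkbp11 (0.834 and 0.402 CPM) was higher in library 1. Summed GC markers were 317 and 343 CPM in shTet2 libraries, against 217 to 255 CPM in controls, with 2 of 9 called higher (S1pr2 and Fas). Myeloid markers summed to 77.5 and 242 CPM in shTet2 libraries, against 101 to 179 CPM in controls, with 0 of 10 called, and Itgam reached 53.6 CPM in shTet2 library 2 alone. T cell markers summed to 27.2 and 46.2 CPM in shTet2 libraries, against 16.8 to 37.7 CPM in controls, with 0 of 9 called. The part of these cells and of the ribosomal share in the lymphoma result was not tested. In KO libraries myeloid markers summed to 76.0 to 79.3 CPM, against 132 to 150 CPM in WT libraries, with 9 of 10 called lower. T cell markers summed to 122 to 146 CPM in KO libraries, against 171 to 213 CPM in WT libraries, with 1 of 6 called higher (Thy1) and 1 lower (Lck). Nearly all of this sum was Lck, with 3486 to 4229 reads in KO and 4462 to 6401 in WT libraries. Thy1 had 63 to 75 reads in KO and 7 to 18 in WT libraries, and the other T cell markers were also low. The sum therefore describes Lck and not a number of T cells. The part of these cells in the GC result was not tested. Plasma cell genes summed to 2121 to 2722 CPM in KO, against 2050 to 2541 CPM in WT libraries, with 1 of 13 called (Ly6c2, lower).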

How the data were processed

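RNA was profiled by stranded mRNA-seq in 14 libraries (4 KO, 3 WT, 2 shTet2 and 5 control), per the labels' protocols. The authors deposited raw counts per gene, made with STAR 2.3.0e, per the submitters' processing notes, and featureCounts 1.5.1 with the GENCODE vM3 annotation on GRCm38, per the file headers, without a strand or multi-mapping option. Sense and antisense reads are therefore added up, and reads that fit several places are not counted. The deposited exon length of each gene was used for CPM per kb.

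From these counts, edgeR 4.0.16 (TMM scaling, filterByExpr, robust quasi-likelihood F test, Benjamini-Hochberg over all genes tested, threshold 0.05) tested KO against WT and shTet2 against control within each cell source, and control against WT and the difference of both Tet2 effects in 1 model of all 14 libraries. Its script was tested on simulated counts. CPM use TMM-scaled library sizes within each cell source; totals of lymphoma libraries include ribosomal RNA, so their CPM are not comparable in level with those of GC cells. An SE was derived from the F statistic. DESeq2 1.42.0, limma-voom 3.58.1, other scalings and filters, a replicate block and fits without each library were alternatives. No library pair of a group agreed within counting noise. Values were given per library for Hspa5, Ern1, Atf6, Atf4 and Ddit3, and, per comparison, for up to 6 called members with the largest change in each direction or, with fewer than 3 calls, the 3 smallest p-values; other members were chosen after their values were seen. The 11 further lists hold 197 entries, of which 6 symbols were not matched in the tables. The members and the gene lists were chosen with earlier results of these data known, and no set test was run. Intervals from counting alone are not given; the number of libraries limits the precision.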

Additional observations from a re-analysis of the deposited data

Results flagged for a closer look

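The shTet2 effect differed from the KO effect, by the test of the difference in 1 model of all 14 libraries, for 16 members, where 4.99% of all 15441 genes were called. As given above, this count changed strongly with the library left out. On the log2 scale (shTet2 effect minus KO effect) the difference was 1.85 for Sdf2l1, 1.25 for Hsp90b1, 1.23 for Pdia6, 1.11 for Manf, 0.97 for Hyou1 and 0.97 for Spcs1. It was 0.87 for Pdia3, 0.85 for Sel1l, 0.78 for Dnajb11, 0.77 for Herpud1 and 0.75 for Spcs3. For Spcs2, Dnajc3, Rpn1 and Calr it was 0.70, 0.69, 0.64 and 0.63. Dnajb9 had the opposite sign, with -0.79.

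Of 96 groups of 4 or 5 values, 3 held a library far from the others, where chance flags about 1 in 20. Hsp90b1 was at 350.1 CPM in KO 5, beside 523 to 528 CPM in the other KO libraries. Pdia4 was at 106.1 CPM in KO 5, beside 130.0 to 134.9 CPM. Derl1 was at 142.2 CPM in KO 2, beside 128.9 to 130.9 CPM.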

How the results depend on the processing

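For KO against WT cells the count of members called higher was 5 with DESeq2, 4 with no filter (Dnajb9, Edem1, Atf4 and Ddit3) and 1 in 1 model of all 14 libraries (Dnajb9), which also gave a members' median of 0.0064; it was 0 to 1 when 1 library was left out (Dnajb9 without KO 4, Atf4 without WT 1, Ddit3 without WT 4). Ern1 ranged from -0.016 to 0.22 in these fits. Over all genes the higher calls in KO against WT cells went from 261 of 13600 to 443 with DESeq2 and 504 of 22863 with no filter. For shTet2 against control cells the count of 11 became 19 with DESeq2, 6 with limma-voom, 18 with no filter and 22 in 1 model of all 14 libraries. Over all genes the higher calls there moved as well, from 235 of 12797 to 352 with DESeq2, 182 with limma-voom and 521 of 22454 with no filter. For the model of all 14 libraries the all-gene counts are not given, so its member counts have no share beside them. Leaving out 1 library gave 1 to 31 members higher, 0 to 1 lower and medians of 0.16 to 0.68; Atf4 ranged from -0.26 to 0.19 and Atf6 from -0.24 to 0.37. Atf4 was 0.0052 with no filter and 0.0022 in the model of all libraries. The difference of both effects was negative and called for 2 members with RLE scaling, DESeq2 and no filter, and for 1 to 2 when 1 library was left out, when 2 to 28 were positive and called, the median was 0.17 to 0.67 and Atf6 ranged from -0.37 to 0.28. Atf6 was -0.026 with limma-voom and -0.0036 with no filter. For the difference, the share of all genes called without 1 library is not given. For control against WT cells the members' median was -0.62 with RLE scaling, -0.62 with DESeq2 and -0.35 with upper-quartile scaling, which called 14 higher, and Hspa5 was -0.0062 with no filter. RLE scaling and DESeq2 moved the all-gene median there by 0.14 and leaving out ribosomal and structural RNA rows by 0.13. Upper-quartile scaling called 7486 of all 15441 genes higher there, beside 6211 with TMM scaling. The cause of these changes was not tested.

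Replicate numbers are shared between groups, but the labels do not say that they pair libraries. Deviations of same-numbered libraries correlated at 0.03 and -0.02 in GC cells and at -0.10 and -0.00 in lymphoma cells. With the replicate block, 0 members were called in either Tet2 comparison, with medians of 0.52 for shTet2 against control and -0.08 for KO against WT. In that fit only libraries whose number occurs in both groups inform the difference, which leaves little to estimate the spread from. Its lack of calls therefore says little about the members. Among 196 leave-one-library values of the 14 named members, control against WT kept every direction and call. Most of these 14 were picked as the called members with the largest changes, so that stability was likely beforehand. Over all members tested, the median log2 fold change ranged from -0.82 to -0.72 in these fits. The lymphoma libraries held 1525853 to 6775761 counts outside ribosomal rows, and the shTet2 group has 2 libraries. Both limit the precision.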

Other observations

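Gene lists beside the members also differed between control lymphoma and WT GC B cells, where 40.2% of all genes were called higher and 40.4% lower. Of 24 tested ATF4 and CHOP targets, 1 was higher and 15 were lower, with a median log2 fold change of -1.12. Other targeting and translocation genes gave 3 higher and 15 lower of 21 (median -0.92), other folding genes 3 and 16 of 22 (median -0.77), other coat and retrieval genes 6 and 22 of 30 (median -0.58) and other degradation genes 4 and 13 of 20 (median -0.57). Other sensors and regulators gave 4 higher and 9 lower of 14. All 9 tested GC markers were lower (median -5.73), plasma cell genes gave 3 higher and 8 lower of 13, B cell markers 1 higher and 6 lower of 8, T cell markers 9 higher and 1 lower of 10, and myeloid markers 4 higher of 12. In shTet2 against control cells, B cell markers gave 1 lower of 8 (Cd37, log2 fold change -0.47), and in KO against WT cells 0 of 8.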
